A study of Pararge aegeria with 4 samples.

Results

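The mRNA of ovaries from 2 stocks of Pararge aegeria, the Speckled Wood butterfly, was compared gene by gene: St Hubert, from the south of Belgium, and Zonza, from Corsica. A gene was taken as the set of contigs to which the Trinity assembler had given the same gene number, and its level in a library was the sum of the FPKM (fragment counts scaled by contig length and by the number of mapped fragments in the library) of those contigs. Of the 9873 genes listed, 6666 had a mean sum of at least 10 FPKM over both libraries and were kept. These genes held 13132 of the 17636 contigs, and 97.4% of all listed FPKM in St Hubert and 97.5% in Zonza. The lowest mean among the genes kept was 10 FPKM and the highest among those left out was 9.99 FPKM. The genes were then ranked by log2((Zonza FPKM + 1)/(St Hubert FPKM + 1)), called the log2 ratio throughout, which is positive where the Zonza library was higher and understates the difference of genes with low values.

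Each population was represented by 1 mRNA library, made from the ovaries of 2 mated females that had been dissected 6 days after mating, at the height of egg laying. Mated females of both stocks were kept in the laboratory at the same temperature and day length, the Zonza stock being newly founded and the St Hubert stock kept for longer. Reads of both libraries had been pooled for the assembly. With 1 library per population no test is possible: the values compare these libraries, not the populations, and a population, a stock history and a pair of females cannot be told apart.

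The butterfly ovary is a set of ovarioles in which oocytes and their nurse cells are wrapped by a layer of follicle cells. While the oocyte grows it takes up yolk, of which vitellogenin and lipophorins are made mostly in the fat body and carried in the haemolymph, while the follicle cells add yolk proteins of their own. Late in development the follicle cells lay down the vitelline membrane and then the chorion, the eggshell, whose structural proteins are encoded by large families of genes in the A, B and C classes and are transcribed in quick succession. The nurse cells load the oocyte with ribosomes, mitochondria and maternal mRNAs. A bulk library sums all of these cells, so that fewer cells of a type and less RNA per cell cannot be told apart.

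Most genes had similar values in the 2 libraries. The median log2 ratio was 0.01, the quartiles were -0.24 and 0.27, and 2730 genes (41.0%) lay between -0.2 and 0.2. A difference of at least 2-fold was found for 259 genes in favour of Zonza, which is 3.89% of the genes kept, and for 243 genes in favour of St Hubert, which is 3.65%, and so for 502 genes (7.53%) in either direction. At least 4-fold, the counts were 63 (0.945%) and 56 (0.84%). The middle 95% of the log2 ratios ran from -1.27 to 1.34. There were 7 genes listed at 0 in St Hubert, with 22.06 to 466.12 FPKM in Zonza, and 5 listed at 0 in Zonza, with 22.98 to 89.41 FPKM in St Hubert. No fold is given for these.

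**Figure D1:**
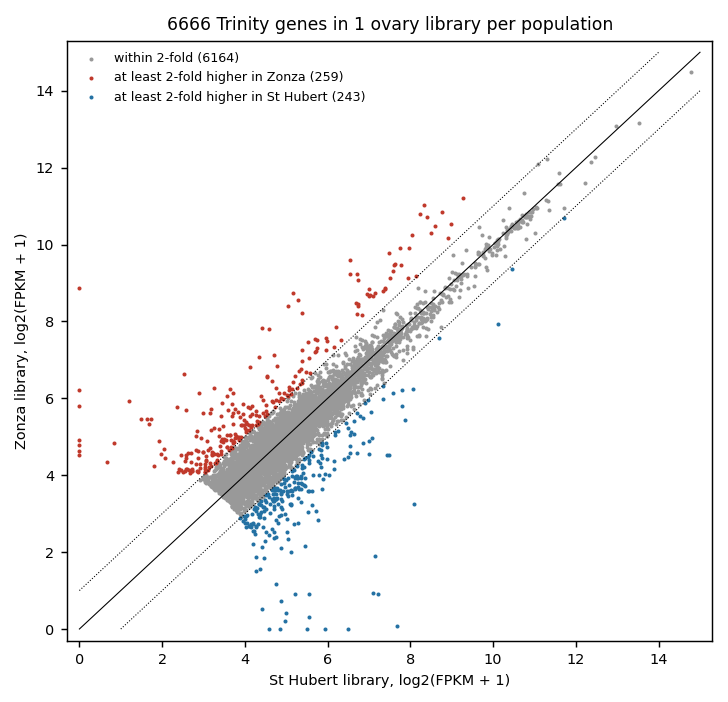
Level of each of the 6666 genes in the St Hubert library (x axis) and in the Zonza library (y axis), both as log2(FPKM + 1), with 1 point per gene. The solid line marks equal values and the dotted lines 2-fold. Red points are the 259 genes at least 2-fold higher in Zonza and blue points the 243 at least 2-fold higher in St Hubert. The corner at the lower left is empty because genes with a mean under 10 FPKM were left out.

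The deposited values show how many fragments stood behind these levels. Low FPKM values of contigs that were alone in their gene came in steps, from which about 21700000 fragments were inferred for St Hubert and 20500000 for Zonza, 0.946 times as many. For these low values 96.1% of 51 contigs in St Hubert and 97.7% of 43 in Zonza came out within 0.15 of a whole number. The step had been fitted to bring these same contigs close to whole numbers, so these shares are no independent check. The genes at least 2-fold higher in Zonza had a median of about 1103 fragments there and at least 38, and those at least 2-fold higher in St Hubert a median of about 952 there and at least 45. Differences were more frequent at some levels than at others. Between 10 and 20 FPKM 9.05% of genes differed by at least 2-fold in either direction, between 50 and 200 FPKM 5.77% did, and neither library held a large majority of these. Between 200 and 1000 FPKM the division was uneven: of 238 genes, 34 (14.3%) were at least 2-fold higher in Zonza and 2 (0.84%) in St Hubert. Of these 34 genes, 6 belonged to the chorion list described next, 12 had no functional name and 16 had other names.

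Eggshell proteins made up the group with the clearest displacement. Of 16 genes matched by the chorion list, 11 (68.75%, against 3.89% of all genes kept) were at least 2-fold higher in Zonza and none in St Hubert. The 16 genes had a median log2 ratio of 1.85 against 0.01 over all genes kept. Their summed level was 3267 FPKM in St Hubert and 10822 FPKM in Zonza, 3.31 times as much. The most abundant, the class A precursor ChAP3 (c10424_g1), stood at 615.6 FPKM in St Hubert and 2362.75 FPKM in Zonza, a log2 ratio of 1.94. The class B precursor ChBP1 (c16220_g1) stood at 335.09 and 1688.86 FPKM, a log2 ratio of 2.33. Not all of its contigs had the earlier match of its most abundant contig. Those with that match had 164.24 and 881.68 FPKM, a log2 ratio of 2.42. ChCB1 (c11809_g1), a homologue of the chorion class CB protein M5H4, stood at 477.41 and 1155.95 FPKM, a log2 ratio of 1.27. Members with lower levels included the largest ratios. ChBP3 (c8009_g1) had 31.73 FPKM in St Hubert and 334.04 FPKM in Zonza, a log2 ratio of 3.36, and the chorion protein-like ChP-L (c15162_g3) had 22.92 and 223.37 FPKM, a log2 ratio of 3.23. Some of these genes are close relatives or pieces of each other, and reads may have been divided between them: the 2 genes named ChAP1 share a Trinity component and an earlier contig, and their sum was 283.46 FPKM in St Hubert and 1424.91 FPKM in Zonza.

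The chorion list was not uniform. All 13 structural eggshell genes in it had a log2 ratio above 0, the lowest being 0.69 for ChAP6 (c10686_g1; 291.01 and 468.78 FPKM) and 0.71 for the chorion protein E1 (c19365_g1; 141.48 and 231.4 FPKM). The other 3 members are not eggshell structural proteins and had similar values in the 2 libraries. The chorion peroxidase Pxt (c17587_g1), an enzyme that cross-links eggshell proteins in flies, had 191.39 FPKM in St Hubert and 156.41 FPKM in Zonza. The chorion b-ZIP transcription factor CbZ (c14659_g1) had 88.86 and 85.83 FPKM, and Chorion factor 2 (c16699_g1), a zinc finger transcription factor, had 26.83 and 30.64 FPKM. Of other follicle cell products, the follicle cell protein Fcp3C (c18311_g1) had 282.32 FPKM in St Hubert and 578.36 FPKM in Zonza, a log2 ratio of 1.03. Genes with names of vitelline membrane proteins lay on both sides of 0. The vitelline membrane associated protein P30 (c13410_g1), the only one the list matched, had 118.32 and 177.28 FPKM, a log2 ratio of 0.58. The others were found after values had been seen, by their BLASTx names: VMP25 (c8460_g1) had 383.46 and 1435.71 FPKM, a log2 ratio of 1.90, VMP32 (c14841_g1) had 133.78 and 176.32 FPKM, and VMP26 (c10658_g1) had 1255 and 826 FPKM, a log2 ratio of -0.60. The most abundant gene of both libraries was also a follicle product by its BLASTx name, although its earlier name was Spherulin-2A: c12813_g1, annotated as the follicular epithelium yolk protein, had 28146 FPKM in St Hubert and 23096 FPKM in Zonza, a log2 ratio of -0.29. The structural chorion genes thus all lay above 0, while this yolk product of the follicle lay slightly below 0 and well within 2-fold.

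**Figure D2:**
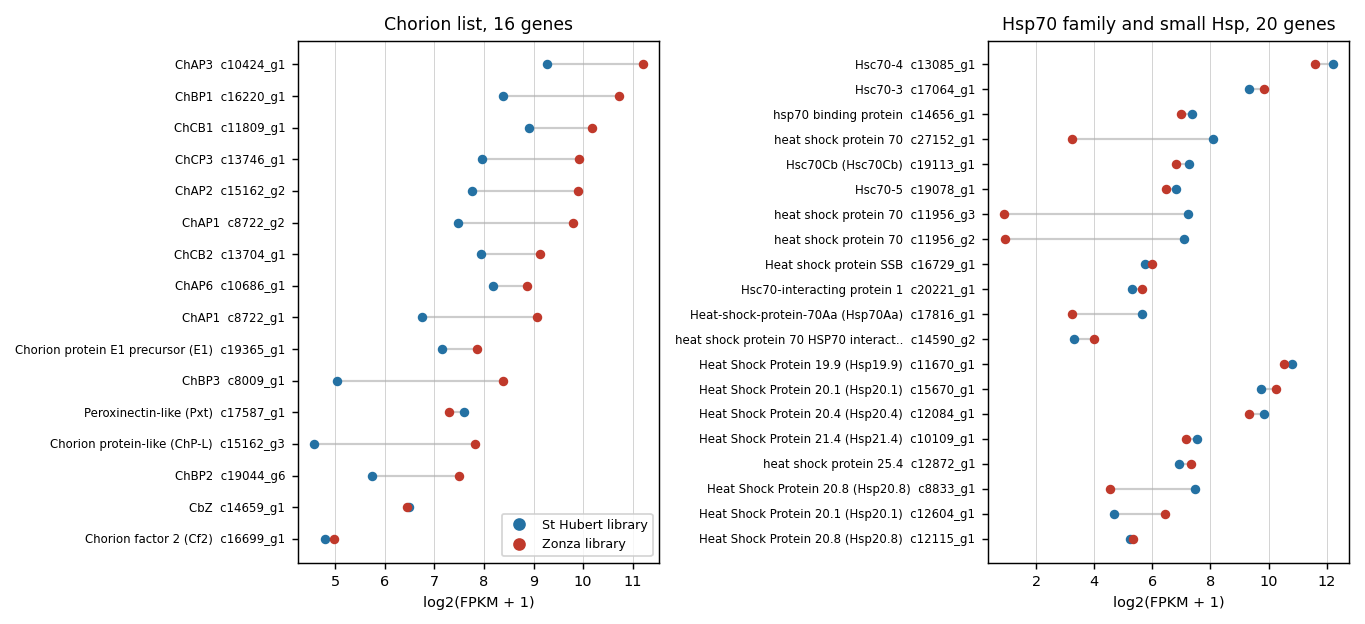
Level in each library, as log2(FPKM + 1), of the 16 genes of the chorion list (left) and of the 20 genes of the Hsp70 family and the small heat shock proteins (right). Blue points are the St Hubert library and red points the Zonza library, 1 library each, so that there are no error bars. The red points lie to the right for the 13 structural eggshell genes, and 4 genes of the Hsp70 family and Hsp20.8 (c8833_g1) have their red points far to the left.

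Yolk proteins, lipid carriers and their receptors, 18 genes in all, had a median log2 ratio of 0.02. Of these 18, 3 (16.7%, against 3.89% of all genes kept) were at least 2-fold higher in Zonza and 1 (5.56%, against 3.65%) in St Hubert. The 3 abundant carriers of yolk and lipid were all higher in the Zonza library. Vitellogenin (Vg, c18794_g1), the main yolk precursor, had 2522 FPKM in St Hubert and 4807 FPKM in Zonza, a log2 ratio of 0.93, just under 2-fold. Apolipophorin-III (c9692_g1), the small exchangeable apolipoprotein of the haemolymph, had 318.67 and 2085.85 FPKM, a log2 ratio of 2.71. The precursor of the 2 large apolipophorins (apoLp, c19375_g1) had 112.72 and 285.02 FPKM, a log2 ratio of 1.33. The receptors for these carriers were not higher there. The vitellogenin receptor yolkless (c19088_g1) had 264.73 FPKM in St Hubert and 154.55 FPKM in Zonza, a log2 ratio of -0.77, and the lipophorin receptor (c16476_g1) had 130.7 and 93.45 FPKM, a log2 ratio of -0.48. Neither receptor passed 2-fold. The lipid droplet proteins parted ways as well. Lsd-1 (c18031_g2), a perilipin that coats droplets, had 2.12 FPKM in St Hubert and 43.45 FPKM in Zonza, a log2 ratio of 3.83, the largest of the list. Lsd-2 (c17855_g1), the other insect perilipin, had 311.95 and 254.43 FPKM, a log2 ratio of -0.29. An apolipoprotein D homologue (c12180_g1), a lipocalin, was the 1 member at least 2-fold higher in St Hubert, with 221.33 and 73.24 FPKM and a log2 ratio of -1.58.

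Vitellogenin and the apolipophorins are also defining products of the fat body, and the ovaries had been cleared of fat by hand. Of the fat body markers, no annotation matched hexamerin or arylphorin. A single storage protein gene was at 0 FPKM in St Hubert and 2.02 FPKM in Zonza, whereas all 8 matched genes summed to 3133 FPKM in St Hubert and 7342 FPKM in Zonza, or to 3121 and 7334 FPKM without a pyruvate dehydrogenase kinase (c18342_g8) that the word transferring had matched as transferrin, most of it vitellogenin and apolipophorin. Other haemolymph proteins of the fat body did not move together. Transferrin 1 (Tsf1, c14253_g1) had 82.3 and 77.28 FPKM, and the ferritin heavy chain (Fer1HCH, c16514_g1), which stores iron, had 413.95 FPKM in St Hubert and 187.23 FPKM in Zonza, a log2 ratio of -1.14. A takeout-like juvenile hormone binding protein (c27141_g1) had 26.25 and 113.36 FPKM, a log2 ratio of 2.07. The part of fat body left on the ovaries in these values was not tested.

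Enzymes that make and modify fatty acids were looked at after those values had been seen. Of 20 such genes, 4 (20%, against 3.89% of all genes kept) were at least 2-fold higher in Zonza and none in St Hubert, and the median log2 ratio was 0.64. An acyl-CoA desaturase (c14614_g1), which puts a double bond into fatty acids, had 160.04 FPKM in St Hubert and 441.98 FPKM in Zonza, a log2 ratio of 1.46, and another desaturase (c20372_g1) had 45.3 and 176.95 FPKM, a log2 ratio of 1.94. An elongase of very long chain fatty acids (c17104_g1) had 19.28 and 134 FPKM, a log2 ratio of 2.73. Not every member was higher in Zonza: 6 of the 20 lay below 0, among them a fatty acyl-CoA reductase (c17303_g1) with 156.84 and 96.08 FPKM. The broader Gene Ontology term lipid metabolic process, given in the deposited annotation, had 106 genes and a median log2 ratio of -0.02. Of these 106, 6 (5.66%, against 3.89%) were at least 2-fold higher in Zonza and 4 (3.77%, against 3.65%) in St Hubert.

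The 15 genes with the largest log2 ratios towards Zonza ran from 3.65 to 8.87. At the head stood c27187_g1, whose only names are those of a hypothetical protein, with 0 FPKM in St Hubert and 466.12 FPKM in Zonza. It was carried by a single contig of 1434 bases and about 12420 fragments. A further 6 of the 15 were listed at 0 in St Hubert, among them c24338_g1 with 72.75 FPKM in Zonza, a contig of 6931 bases (c20570_g1) annotated as an RNA polymerase with 26.35 FPKM, and a phosphatidylethanolamine binding protein (c20489_g1) with 54.64 FPKM. The last of these shared its earlier-transcriptome contig with another Trinity gene, and summed over both the values were 85.77 FPKM in St Hubert and 115.69 FPKM in Zonza. In all, 6 of the 15 had no functional name and 4 shared an earlier contig with another gene.

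Enzymes of nitrogen waste stood out among the named genes at this end. Allantoicase (c15867_g1), which splits allantoate in the breakdown of purines, had 1.28 FPKM in St Hubert and 60.52 FPKM in Zonza, a log2 ratio of 4.75. Uricase (c16460_g1), which acts on uric acid earlier in the same pathway, had 8.61 and 76.7 FPKM, a log2 ratio of 3.02. Allantoinase (c11597_g2), the enzyme between them, had 66.22 and 68.75 FPKM, a log2 ratio of 0.05. The pathway did not move together. A list of 8 genes for purine breakdown, drawn up after these values had been seen, had a median log2 ratio of -0.01. Of these 8, 2 (25%, against 3.89% of all genes kept) were at least 2-fold higher in Zonza. Only 1 (12.5%, against 3.65%) was at least 2-fold higher in St Hubert. That 1 gene, a molybdopterin cofactor sulfurase (c3314_g1), which activates xanthine dehydrogenase, had 46.04 FPKM in St Hubert and 0.89 FPKM in Zonza, a log2 ratio of -4.64. The 2 xanthine dehydrogenase genes themselves (c19813_g1 and c16864_g1) had 51.47 and 61.85 FPKM and 19.59 and 18.59 FPKM.

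Other named genes at the Zonza end had no pathway in common. An alanine-glyoxylate aminotransferase (c14966_g1), which transfers an amino group from alanine to glyoxylate, had 0.78 FPKM in St Hubert and 27.85 FPKM in Zonza, a log2 ratio of 4.02. A gene named MBF2 (c9015_g1), a factor first described in silk moths, had 4.74 and 97.38 FPKM, a log2 ratio of 4.10. A lectin (c17734_g11) was listed at 0 FPKM in St Hubert and at 23.71 FPKM in Zonza, on a contig of 218 bases and about 40 fragments, and summed with another gene of the same earlier match at 3.56 and 26.5 FPKM, a log2 ratio of 2.59. The members of this end were therefore unequal in the evidence behind them. There were also 2 genes with the name of the nuclease HARBI1, which derives from a transposase, with 1.79 and 43.15 FPKM (c20439_g4) and 2.19 and 39.03 FPKM (c20459_g4). Just outside the 15, and picked after its values were seen, a chemosensory protein (c11266_g1) had 34.78 and 427.35 FPKM, a log2 ratio of 3.58.

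**Figure D3:**
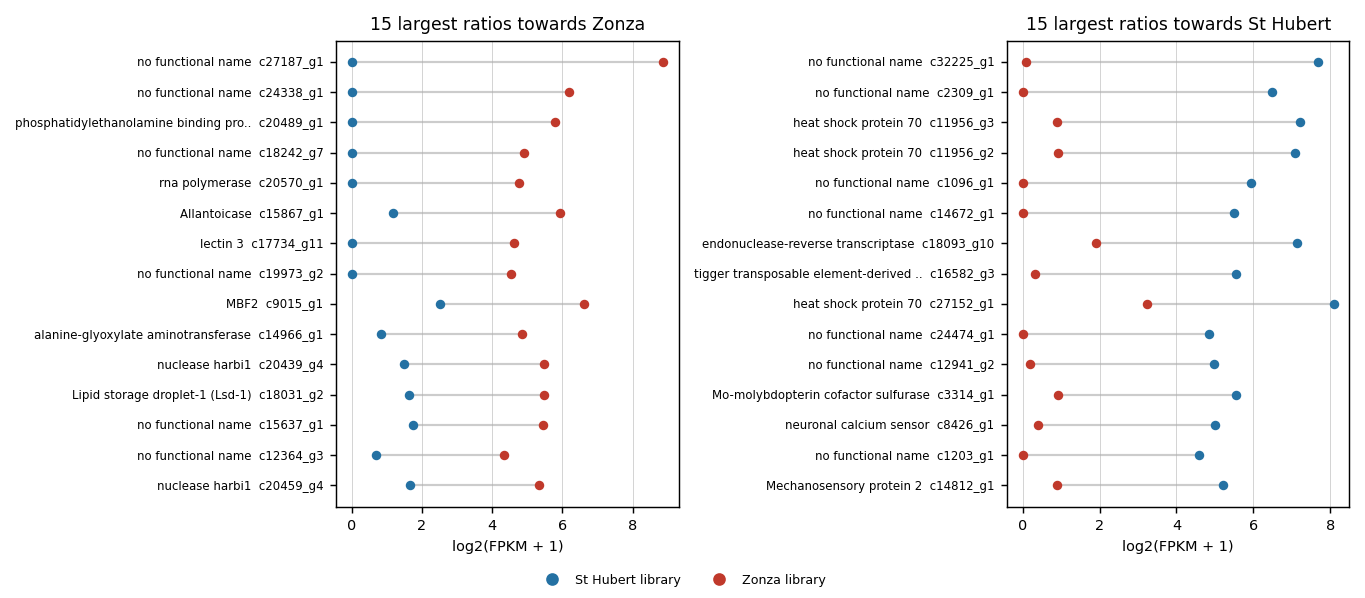
Level in each library, as log2(FPKM + 1), of the 15 genes with the largest log2 ratios towards Zonza (left) and towards St Hubert (right). Blue points are the St Hubert library and red points the Zonza library. On the left 7 blue points lie at 0 and on the right 5 red points do, and 3 of the 15 genes on the right are annotated as heat shock protein 70.

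Heat shock protein 70 was the named function that recurred at the St Hubert end. Hsp70 proteins are chaperones that hold unfolded proteins, with members induced by heat and other stress and cognate members present at all times. Among the 15 genes with the largest ratios towards St Hubert, 3 were annotated as Hsp70. The first (c11956_g3) had 148 FPKM in St Hubert and 0.87 FPKM in Zonza, a log2 ratio of -6.32. The second (c11956_g2) belonged to the same Trinity component on a contig of 295 bases and had 135.46 and 0.9 FPKM, so that these may be pieces of 1 transcript. The third (c27152_g1) had 272.48 and 8.49 FPKM, a log2 ratio of -4.85. A further gene, named Hsp70Aa (c17816_g1), had 48.48 and 8.36 FPKM, a log2 ratio of -2.40. None of these 4 reached the level of the cognates Hsc70-4 or Hsc70-3 in either library, and the cognate members differed less. Hsc70-4 (c13085_g1), the main cytosolic cognate, had 4772 FPKM in St Hubert and 3097 FPKM in Zonza, a log2 ratio of -0.62. Hsc70-3 (c17064_g1), the cognate of the endoplasmic reticulum, had 644.19 and 922.95 FPKM, a log2 ratio of 0.52, and the mitochondrial Hsc70-5 (c19078_g1) had 110.75 and 87.22 FPKM, a log2 ratio of -0.34.

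Over the whole list of heat shock proteins and chaperone partners, 64 genes, 8 (12.5%, against 3.65% of all genes kept) were at least 2-fold higher in St Hubert and 2 (3.12%, against 3.89%) in Zonza, and the median log2 ratio was -0.15. Hsp83 (c16982_g2), the cytosolic Hsp90 and the second most abundant of the list, had 3347 FPKM in St Hubert and 1651 FPKM in Zonza, a log2 ratio of -1.02. The small heat shock proteins went both ways. Hsp20.8 (c8833_g1) had 177.27 and 22.05 FPKM, a log2 ratio of -2.95, while a gene named Hsp20.1 (c12604_g1) had 24.37 and 86.34 FPKM, a log2 ratio of 1.78. The most abundant small heat shock protein, Hsp19.9 (c11670_g1), had 1802 and 1483 FPKM, a log2 ratio of -0.28. All 19 DnaJ co-chaperones, which work with Hsp70, stayed within 2-fold with a median log2 ratio of -0.07, and so did all 10 subunits of the chaperonin CCT with a median of -0.11. The Hsp70 group (12 genes, proteins that bind Hsp70 included) and the small heat shock protein, DnaJ and chaperonin groups were separated after values had been seen. Of 68 genes with the Gene Ontology term protein folding, 1 (1.47%, against 3.65%) was at least 2-fold higher in St Hubert and none in Zonza. Of 233 with the term response to stress, 11 (4.72%, against 3.65%) were higher in St Hubert and 10 (4.29%, against 3.89%) in Zonza.

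The listed antimicrobial and immune genes lay mostly on the St Hubert side, at low levels. Of 20 genes of innate immunity, 8 (40%, against 3.65% of all genes kept) were at least 2-fold higher in St Hubert and none in Zonza, and the median log2 ratio was -0.46. An attacin-like gene named DFP-3 (c17570_g2), which encodes an antibacterial protein, had 20.24 FPKM in St Hubert and 0.43 FPKM in Zonza, a log2 ratio of -3.89. A second attacin-like gene (c13019_g1) had 30.09 and 6.89 FPKM, a log2 ratio of -1.98. A defensin (c11281_g1) had 35.32 and 13.07 FPKM, a log2 ratio of -1.37, and a lysozyme (c3125_g1), which digests bacterial walls, had 20.56 and 5.28 FPKM, a log2 ratio of -1.78. Other genes named for antibacterial effectors had similar values in the 2 libraries, with 10.98 and 11.51 FPKM for a second lysozyme (c13464_g1) and 9.35 and 10.65 FPKM for a cecropin (CecA1, c20202_g5). The Toll family receptor 18 wheeler (18w, c20280_g4), which also shapes tissues in fly development, had 17.45 and 5.82 FPKM, a log2 ratio of -1.44. Recognition proteins and activators of the phenoloxidase cascade were mixed: the most abundant member, a beta-1,3-glucan-binding protein (c13588_g1), had 100.94 and 122.52 FPKM, and a peptidoglycan recognition protein (c10156_g1) had 9.63 and 18.37 FPKM, a log2 ratio of 0.87. Only 11 of the 20 genes had names that agreed between both annotations, and of these 4 were at least 2-fold higher in St Hubert. The broader Gene Ontology term immune system process did not lean the same way. Of its 60 genes, 3 (5%, against 3.89% of all genes kept) were at least 2-fold higher in Zonza. In St Hubert 1 (1.67%, against 3.65%) was, and the median log2 ratio was -0.01. The 7 haemocyte markers, which include both lysozymes, summed to 39.7 FPKM in St Hubert and 25.4 FPKM in Zonza. Of these 7, 4 were at least 2-fold higher in St Hubert and 1 in Zonza, with a median log2 ratio of -1.04. Over all genes kept the shares were 3.65% and 3.89%. Apart from the lysozymes, however, these markers had means under 10 FPKM and were not among the genes kept, so the shares are not a like comparison. Without the lysozyme c3125_g1 the other 6 summed to 19.1 and 20.1 FPKM. Among them hemolin was at 0 FPKM in St Hubert and 6.56 FPKM in Zonza. The 3 prophenoloxidase genes were higher in St Hubert, at 2.65 and 0.4, 2.3 and 0.61, and 1.83 and 0.22 FPKM. All 3 were thus low in each library, and the part of haemocytes in the result was not tested.

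Detoxification and redox enzymes, 69 genes, had a median log2 ratio of -0.07, but 10 (14.5%, against 3.65% of all genes kept) were at least 2-fold higher in St Hubert and 2 (2.9%, against 3.89%) in Zonza. The largest was a carboxylesterase (c11628_g2), with 44.73 FPKM in St Hubert and 7.24 FPKM in Zonza, a log2 ratio of -2.47. A glutathione S-transferase (c19783_g2), which conjugates toxins to glutathione, had 114.9 and 44.03 FPKM, a log2 ratio of -1.36. The cytochrome P450 CYP18A1 (c13386_g1), which inactivates ecdysteroids in flies, had 25.27 and 7.69 FPKM, a log2 ratio of -1.60. Members with such differences were mostly of low level. The 3 most abundant members did not reach 2-fold: a gene whose 2 annotations disagreed between thioredoxin peroxidase and histone H3 (c14618_g2) had 1211 and 1597 FPKM, a peroxiredoxin (c20284_g3) had 434.64 and 418.45 FPKM, and thioredoxin-2 (c17061_g1) had 409.02 and 330.16 FPKM. In the other direction an esterase (c15859_g1) had 180.92 FPKM in St Hubert and 556.16 FPKM in Zonza, a log2 ratio of 1.61, and the cytochrome P450 CYP6AE9 (c15681_g1) had 3.81 and 19.23 FPKM, a log2 ratio of 2.07. Lactoylglutathione lyase (Glx I, c14755_g1), which clears methylglyoxal and was picked after its values were seen, had 127 and 22.25 FPKM, a log2 ratio of -2.46.

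The remaining genes at the St Hubert end were mostly without a name. The largest ratio belonged to c32225_g1, an uncharacterised contig of 1877 bases with 204.57 FPKM in St Hubert, about 7730 fragments, and 0.06 FPKM in Zonza. Of the 15 genes, 7 had no functional name and 5 were listed at 0 in Zonza, the highest of these being c2309_g1 with 89.41 FPKM in St Hubert. An earlier contig was shared with another gene by 3 of the 15. Summed over the shared match, c14672_g1, listed at 0 in Zonza, had 88.74 and 46.54 FPKM, a log2 ratio of -0.92. The log2 ratio of c16582_g3 went from -5.24 to -1.01 in the same way. Named genes among the 15 included a neuronal calcium sensor (c8426_g1; 30.93 and 0.33 FPKM) and a homologue of the nematode mechanosensory protein 2 (c14812_g1; 35.87 and 0.87 FPKM), a protein of the stomatin family. Transposable elements were present at both ends. A gene with the earlier name endonuclease-reverse transcriptase (c18093_g10), a type of enzyme encoded by retrotransposons, but an RNA exonuclease by BLASTx, had 140.95 FPKM in St Hubert and 2.74 FPKM in Zonza, a log2 ratio of -5.25. A reverse transcriptase gene (c20190_g3) had 6.38 and 69.19 FPKM, a log2 ratio of 3.25. Summed over contigs with the same earlier match as the lead contig, the log2 ratios of these genes were closer to 0, at -2.59 for c18093_g10 and 1.62 for c20190_g3. Of 103 genes matched as transposable elements, 7 (6.8%, against 3.89% of all genes kept) were at least 2-fold higher in Zonza and 11 (10.7%, against 3.65%) in St Hubert, with a median of -0.16. Among genes with a mean of at least 200 FPKM, the largest ratio towards St Hubert belonged to an uncharacterised gene, c13343_g1, with 1110.57 FPKM in St Hubert and 245.11 FPKM in Zonza and a log2 ratio of -2.18.

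**Figure D4:**
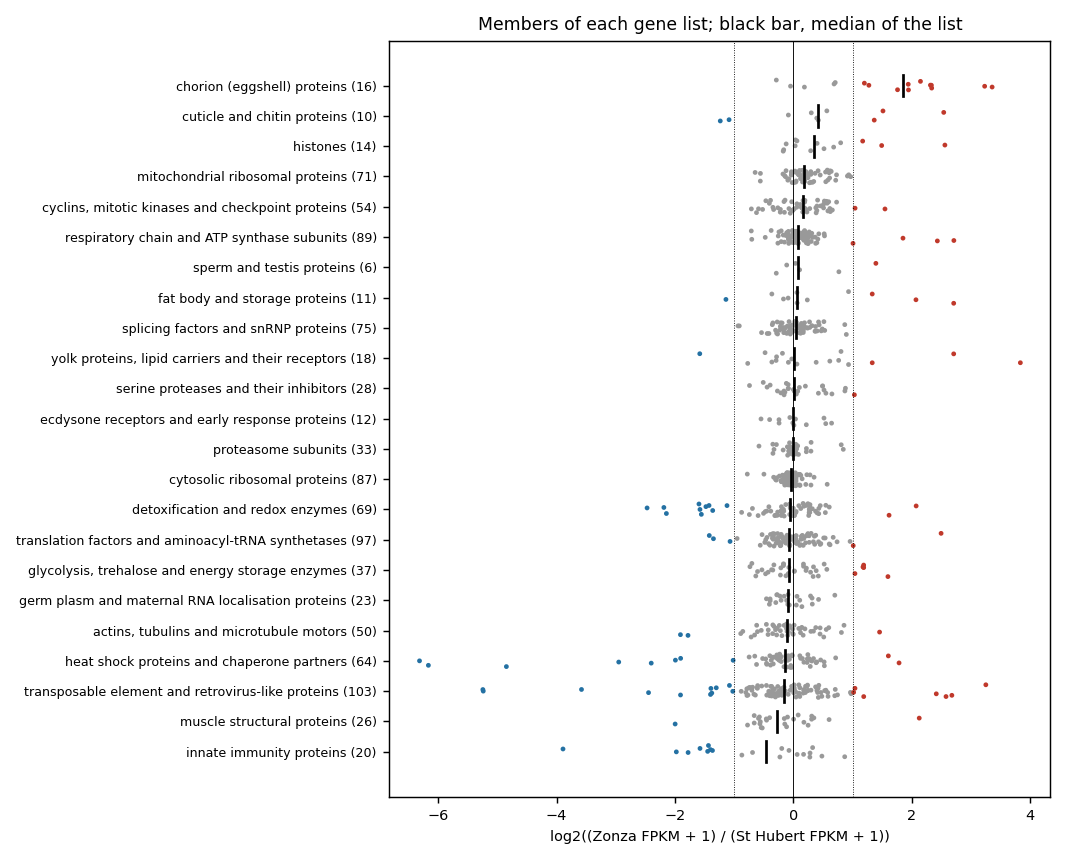
Log2 ratio of every gene kept in each of 23 gene lists, 1 point per gene, with the number of genes in brackets and the median as a black bar. The dotted lines mark 2-fold, red points are at least 2-fold higher in Zonza and blue points at least 2-fold higher in St Hubert. The chorion list lies furthest to the right with a median of 1.85 and the innate immunity list furthest to the left with a median of -0.46, while no cytosolic ribosomal, proteasome or splicing gene passes 2-fold.

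Genes of muscle, which sheathes the ovarioles, served as a check on the tissue taken. Of 26 muscle genes, 1 (3.85%) was at least 2-fold higher in each direction, near the 3.89% and 3.65% of all genes kept. The median log2 ratio was -0.28. The most abundant, arginine kinase (c13730_g1), which buffers ATP, had 575.35 FPKM in St Hubert and 398.98 FPKM in Zonza. Myosin heavy chain (c14331_g1) had 68.33 and 51.47 FPKM, and tropomyosin 1 (Tm1, c16782_g1) had 222.34 and 235.01 FPKM, although its contigs with the earlier match of the lead contig alone had 74.06 and 37.94 FPKM, a log2 ratio of -0.95. Both genes past 2-fold had names that disagreed: paramyosin (Prm, c15126_g1; 9.68 and 45.57 FPKM) was a plant protein by BLASTx, and a calponin homology protein (c16480_g1; 222.55 and 54.95 FPKM) had the earlier name heparanase. Defining markers of muscle summed to 1275 FPKM in St Hubert and 978 FPKM in Zonza, those of the germline to 1462 and 1237 FPKM, and those of follicle cells, almost all of them chorion genes, to 3199 and 10849 FPKM. The 22 muscle markers, some of them under the minimum mean, had a median log2 ratio of -0.46. All lay below 0 except tropomyosin 1 and a troponin C (c3801_g1; 0.54 and 1.72 FPKM). Of the 22, 2 were at least 2-fold higher in St Hubert (against 3.65% of all genes kept) and none in Zonza (against 3.89%). Genes named for sperm or testis summed to 249 and 267 FPKM, of which the nuclear autoantigenic sperm protein (c19256_g1), a histone chaperone not limited to sperm, had 128.72 and 138.39 FPKM, or 43.98 and 94.8 FPKM over contigs with the earlier match of its lead contig. Ovary markers were present in both libraries, with vasa (c19401_g1), the germline RNA helicase, at 82.17 and 67.86 FPKM.

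Transcripts of the mitochondrial genome did not move together. A contig without a name of its own whose best match was a mitochondrial genome (c8061_g1) was the second most abundant gene, with 11807 FPKM in St Hubert and 9201 FPKM in Zonza. Cytochrome c oxidase subunit I (c16318_g1) had 2061 and 1258 FPKM, a log2 ratio of -0.71, while NADH dehydrogenase subunit 4 (c12419_g1) had 126.04 and 456.99 FPKM, a log2 ratio of 1.85. Cytochrome b (c14538_g1) lay between them, with 611.42 and 727.46 FPKM. Of 10 genes kept whose best NCBI match was a mitochondrial genome, 8 lay above 0 and 2 below, with a median log2 ratio of 0.28. At least 2-fold higher in Zonza were 2 of them (20%, against 3.89% of all genes kept), and none in St Hubert. Their log2 ratios spanned -0.71 to 1.85. A gene named cytochrome c oxidase subunit III without such a match (c11751_g1; 91.37 and 603.15 FPKM) had a log2 ratio of 2.71. A similar caution holds for c11604_g1, named as a histone H2A but with the 18S ribosomal RNA gene of another butterfly as its best NCBI match, which had 301.02 FPKM in St Hubert and 1777.42 FPKM in Zonza, a log2 ratio of 2.56. The histone list of 14 genes had 3 (21.4%, against 3.89% of all genes kept) at least 2-fold higher in Zonza, c11604_g1 included. Without c11604_g1, the list held 2 further such genes, both at a low level. A histone H3 (c1888_g1) had 7.92 and 19.06 FPKM, and a histone H2A (c19260_g2) had 5.23 and 16.5 FPKM. The latter shared its earlier match with the abundant histone H2A named next and had a log2 ratio of -0.11 when summed with it. The most abundant histone, H2A (c17965_g1), had 2135 and 1960 FPKM.

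Respiratory chain genes encoded in the nucleus stayed close to 0. Of 89 respiratory genes, 4 (4.49%, against 3.89% of all genes kept) were at least 2-fold higher in Zonza and none in St Hubert. All 4 carried the names of subunits that the mitochondrial genome encodes. The ATP synthase lipid-binding protein (c12145_g1), a nuclear gene, had 1107 FPKM in St Hubert and 1122 FPKM in Zonza. Of 71 mitochondrial ribosomal proteins none passed 2-fold, but 57 lay above 0 and 14 below, with a median log2 ratio of 0.17. Over all genes kept 3390 lay above 0 and 3274 below.

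The abundant genes that were alike in both libraries were those of protein synthesis. The 15 most abundant genes with a log2 ratio between -0.2 and 0.2 comprised 10 genes of the cytosolic ribosomal protein list, polyubiquitin, elongation factor 1-alpha, a histone H2A, an actin and c21379_g1 (3132 and 3043 FPKM), whose only name, from NCBI, is that of the ribosomal protein L41. Polyubiquitin (c14369_g1) had 8033 FPKM in St Hubert and 8629 FPKM in Zonza. Elongation factor 1-alpha (c13416_g1), which brings aminoacyl-tRNA to the ribosome, had 5632 and 4948 FPKM. Ribosomal protein S23 (c27068_g1) had 3045 and 3020 FPKM, a log2 ratio of -0.01, and the commonly used reference gene RpL32 (c27080_g1) had 2109 and 2004 FPKM, a log2 ratio of -0.07. None of the 87 cytosolic ribosomal protein genes passed 2-fold in either direction, and their log2 ratios ran from -0.78 to 0.57 with a median of -0.04. Their summed level was 101067 FPKM in St Hubert and 98212 FPKM in Zonza. The same held for all 33 proteasome genes (median -0.01) and all 75 splicing genes (median 0.04). Of 97 translation factors and tRNA synthetases 2 (2.06%, against 3.89% of all genes kept) were at least 2-fold higher in Zonza and 3 (3.09%, against 3.65%) in St Hubert, with a median of -0.07.

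Few genes passed 2-fold in the lists of germ plasm, ecdysone, serine protease and cell cycle genes. None of 23 germ plasm and maternal RNA localisation genes passed 2-fold, and their median log2 ratio was -0.10. A nanos-like gene (nos-L, c13729_g1), whose relatives repress translation in the germline, had 909.83 FPKM in St Hubert and 686.29 FPKM in Zonza, and Tudor-SN (c20238_g3), a component of RNA granules, had 100.36 and 163.51 FPKM. Among ecdysone receptors and early response genes none of 12 passed 2-fold. The ecdysone-induced nuclear receptor Eip75B (c18128_g3) had 49.68 and 57.91 FPKM. Serine proteases and their inhibitors, 28 genes, had 1 (3.57%, against 3.89% of all genes kept) past 2-fold in favour of Zonza. Of these, nudel (ndl, c20030_g1), the eggshell protease that starts dorsoventral patterning in flies, had 242.19 and 228.08 FPKM. Of 54 cell cycle genes 2 (3.7%) were at least 2-fold higher in Zonza, near the 3.89% of all genes kept. The largest ratio of that list towards Zonza was that of Cyclin D (CycD, c13226_g1), which drives entry into the cycle, with 4.87 and 16.14 FPKM.

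Several structural and metabolic lists had single members far from the median of the list. Among 50 actins, tubulins and microtubule motors, 1 (2%, against 3.89% of all genes kept) was at least 2-fold higher in Zonza and 2 (4%, against 3.65%) in St Hubert. Alpha-tubulin at 85E (c13592_g1) had 2621 FPKM in St Hubert and 1909 FPKM in Zonza. Of 37 genes of glycolysis, trehalose and energy storage, 5 (13.5%, against 3.89% of all genes kept) were at least 2-fold higher in Zonza and none in St Hubert, although the median log2 ratio was -0.08. Where both names agreed, 2 of 24 were. These 5 included the trehalose transporter Tret1 (c15502_g1), which moves the main sugar of insect haemolymph, with 78.83 and 180.62 FPKM, and trehalose-phosphate synthase (c19767_g3), which makes that sugar, with 39.58 and 82.36 FPKM. The abundant glycolytic enzymes lay on the other side of 0, with enolase (c13779_g1) at 498.63 and 385.6 FPKM and aldolase (c17669_g1) at 241.24 and 144.52 FPKM, a log2 ratio of -0.74. Of 10 cuticle and chitin genes 3 (30%, against 3.89%) were at least 2-fold higher in Zonza, led by a chitin deacetylase (c11662_g1; 8.07 and 51.69 FPKM). In St Hubert 2 (20%, against 3.65%) were, led in level by the cuticle protein CPH43 (c3172_g1; 1393 and 655 FPKM). Of 6 sperm and testis genes 1 (16.7%, against 3.89%) was at least 2-fold higher in Zonza.

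Genes at both ends shared features that the ranking had not used. No functional name was attached to 34.0% of the genes at least 2-fold higher in Zonza, to 39.5% of those at least 2-fold higher in St Hubert, and to 21.95% of the genes within 2-fold. The most abundant contig of a gene had a median length of 1377, 1344 and 1977 bases in these classes, and it was shorter than 500 bases in 14.3%, 15.2% and 3.76%. Another gene of the assembly matched the same contig of the earlier ovary transcriptome for 8.49%, 11.9% and 5.74%. The genes past 2-fold were thus shorter, less often named and more often matched by another gene of the assembly than the rest. When the FPKM of all contigs with the same earlier match were summed, 237 of the 259 genes higher in Zonza and 224 of the 243 higher in St Hubert were still at least 2-fold higher in the same library. Most of these genes shared no match, and of those that did 11 of 22 and 15 of 29 stayed at least 2-fold higher.

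The sum over contigs mattered a great deal for the ratios. Of 1159 genes with several contigs of at least 10 FPKM, 439 had contigs past 2-fold in opposite directions, and 428 of these 439 were within 2-fold as a sum. In 325 of the 439 a contig was listed at 0 in 1 library. Calmodulin (c11313_g1), the calcium sensor, was such a gene. Its first contig had 0 FPKM in St Hubert and 303.48 FPKM in Zonza, its second had 401.88 and 0 FPKM, and their sum had 401.88 and 303.48 FPKM, a log2 ratio of -0.40. Where the most abundant contig alone stood for a gene, 414 genes were at least 2-fold higher in Zonza and 756 in St Hubert, of 5808 genes with a mean of at least 10 FPKM. Values of single contigs from this assembly of both populations therefore differed from values of genes in number, size and direction.

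**Figure D5:**
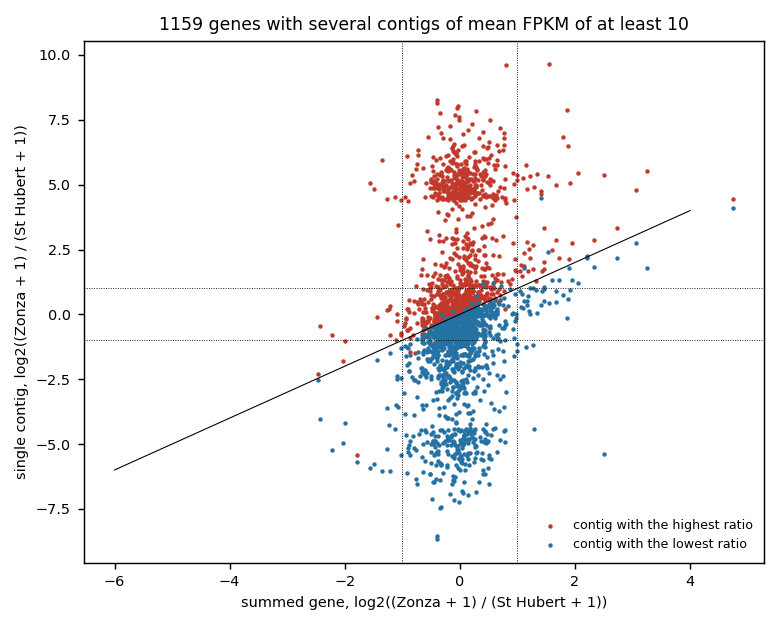
Log2 ratio of the single contigs with the highest (red) and the lowest (blue) ratio of a gene (y axis) against the log2 ratio of the summed gene (x axis), for 1159 genes with several contigs of at least 10 FPKM. The dotted lines mark 2-fold and the solid line equal values. Most genes lie within 2-fold on the x axis while their contigs spread far past 2-fold on the y axis, and the separate clouds at the top and bottom hold contigs at or near 0 in 1 library.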

How the data were processed

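Ovary RNA had been extracted with TRIzol and sequenced as paired reads on an Illumina HiSeq 2000. The authors pooled the reads of both libraries, assembled them with Trinity and estimated FPKM per contig and library with RSEM, and the submitters' processing notes name Bowtie as a tool. The deposited FPKM values cover contigs with a BLAST match (E-value cut-off of 1e-05), together with the name of the best match in an earlier ovary transcriptome of the species, in NCBI and by BLASTx. No genome build applies. The versions of RSEM and Bowtie are not given in the sources used here. Small RNA files were not used.

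FPKM were summed over the contigs of each Trinity gene, genes with a mean of at least 10 were kept, and a pseudocount of 1 was added before the log2 ratio. RSEM divides fragments between similar contigs, which sums over a gene take in together. No test was run with 1 library per population, and nothing shows the spread between females. Genes were called past 2-fold at a log2 ratio of 1 or more in size. Fragment numbers were inferred from the steps of low FPKM values and serve as a guide to depth only. Lists were matched as word patterns in the earlier name and the BLASTx name of the most abundant contig of each gene. These 2 names often disagreed.

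Named by rule were the 15 genes at each end of the ranking, the 15 most abundant with a log2 ratio between -0.2 and 0.2, the 10 most abundant, and in each list the 3 most abundant and the largest ratio each way. Other genes were picked once values were known. The comparison, the members and the lists were chosen with earlier results of these data known, and the lists of Hsp70, small heat shock, DnaJ, chaperonin, purine, fatty acid and mitochondrial genome genes after values had been seen. Alternatives were pseudocounts of 0.1 and 5, minimum means of 1 and 50, centred ratios, a common total, other ways of joining contigs, a 4-fold threshold and other rules for list members. Scripts ran in Python 3.11.15 with pandas 2.3.3, numpy 2.4.6 and matplotlib 3.10.9 and were checked on simulated FPKM with known fold changes.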

Additional observations from a re-analysis of the deposited data

How the results depend on the processing

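No paired analysis was possible because each population had 1 mRNA library, and for the same reason no library could be left out. The numbers of genes at least 2-fold higher in Zonza (259) and genes at least 2-fold higher in St Hubert (243) stayed within 1.5 times under both other pseudocounts, centring, a common total, summing over a shared earlier match and, chosen after seeing the data, a lead contig of at least 500 bases. They were 492 and 484 with a minimum mean of 1 FPKM, 83 and 42 with a minimum of 50 FPKM, 414 and 756 from the most abundant contig alone, and 63 and 56 at 4-fold. The first 2 settings test more and fewer genes by construction (9459 and 1752), the 4-fold setting asks for more, and the cause of the third was not tested.

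Medians of 29 lists were recomputed. The sign changed under some setting for 11, of which 9 lay between -0.2 and 0.2 as reported. Of the other 2, the innate immunity median went from -0.46 to 0.28 at a minimum of 50 FPKM, where 1 gene was left, and the cuticle median went from 0.41 to -0.086 at a minimum of 1 FPKM. Innate immunity was also at -0.66 at a minimum of 1 FPKM, -0.71 with a common total, -0.21 with lead contigs of at least 500 bases and -0.23 where both names agreed. The minimum of 50 FPKM moved yolk proteins and lipid carriers to -0.29, muscle to -0.49, fat body to 0.50 and transposable elements to -0.38. The most abundant contig alone moved fat body to 0.61, transposable elements to -0.40, histones to 0.059, the cell cycle to -0.10, sperm proteins to 0.35 and the Hsp70 family to -0.72. Names that agree, a rule chosen after seeing the data, moved histones to 0.68, ecdysone genes to 0.37, Hsp70 to -0.62 and small heat shock proteins to 0.32. The last were at -0.33 at a minimum of 1 FPKM, and chorion was at 1.27 with lead contigs of at least 500 bases. Of 170 genes named by the rule, the sign changed for 5, of which 1 had been past 2-fold: the cuticle protein c18808_g2, from -1.24 to 0.21 with the most abundant contig alone. A further 5 dropped below 2-fold under a setting, 4 of them after summing over the shared match. Depth was about 20500000 fragments or more per library. Genes at least 2-fold higher in Zonza had at least 38 fragments there, and those at least 2-fold higher in St Hubert at least 45 there. There were no replicate libraries, and how far depth or their absence limits these results was not tested.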

Other observations

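The deposited annotation also gives broad Gene Ontology terms, which were summarised for terms with at least 50 genes kept. Genes placed in the endoplasmic reticulum, 73 in all, had 7 at least 2-fold higher in Zonza (9.59%, against 3.89% of all genes kept) and none in St Hubert, while their median log2 ratio was 0.00. Beside the 2 desaturases described above, the 7 included enzymes that attach or modify lipid anchors of proteins: a subunit of the glycosylphosphatidylinositol transamidase (c16828_g1) had 9.11 FPKM in St Hubert and 20.02 FPKM in Zonza, and a prenylcysteine methyltransferase (c14848_g3) had 12.45 and 30.55 FPKM. A juvenile hormone epoxide hydrolase (c15865_g1), which breaks down that hormone, had 12.22 and 28.67 FPKM. Genes of the extracellular region, 54 in all, had 4 (7.41%, against 3.89%) at least 2-fold higher in Zonza and 6 (11.1%, against 3.65%) in St Hubert. Among the latter was the bone morphogenetic protein homologue glass bottom boat (gbb, c18614_g4), with 42.73 and 14.35 FPKM and a log2 ratio of -1.51.

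Of 186 genes for transport across membranes, 9 (4.84%, against 3.89% of all genes kept) were at least 2-fold higher in Zonza and 1 (0.538%, against 3.65%) in St Hubert, so that the share higher in Zonza was near that of all genes. An organic cation transporter (c16833_g1) had 11.83 FPKM in St Hubert and 56.26 FPKM in Zonza, a log2 ratio of 2.16, and a phosphate transporter (c18101_g2) had 9.31 and 35.49 FPKM, a log2 ratio of 1.82. Of 124 genes for reproduction, 10 (8.06%, against 3.89%) were at least 2-fold higher in Zonza and 3 (2.42%, against 3.65%) in St Hubert. Of the 10, 6 were chorion genes, and the others included slow border cells (slbo, c17409_g1), a transcription factor of migrating follicle cells in flies, with 10.05 and 37.59 FPKM and a log2 ratio of 1.80. These terms, and those given beside the fatty acid, heat shock and immune lists, were picked after their values were seen. They came from all terms of that size, and none was tested.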
